A study of Bos taurus with 8 samples.

Results

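Iron storage, uptake and heme genes are described here through 8 genes: the ferritin chains FTL and FTH1, the transferrin receptor TFRC, transferrin TF, the importer SLC11A2, the exporter SLC40A1, heme oxygenase HMOX1 and the iron regulatory protein IREB2. They were taken by symbol from a table of 28709 genes, and all 8 were found and passed the filter on low counts. The genes were proposed with their progesterone and DMSO values in view, so the differences between these groups are given as a description with no test.

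The cells were BUTE cells, an immortalized epithelial line raised from the uterus of a Holstein dairy cow and labelled wild type. Every dish first spent 24 h in medium that lacked serum and steroids and held insulin-like growth factor 1 (IGF1). Fresh medium of the same kind, with IGF1 at 50 ng/ml, was then given for 24 h together with DMSO as the vehicle in 4 libraries and with progesterone at 10 µM in 4 others. The maintenance medium had held serum and a supplement labelled ITS, and the labels do not say whether the starvation medium held a source of iron. The cells are 1 line from 1 animal, and separate cultures are not named in the labels for the libraries within a group. Every p-value thus covers only the spread of these 8 libraries, which may be technical.

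Cells take up iron bound to transferrin through the transferrin receptor, and the importer SLC11A2 carries it out of the endosome. Iron that is not used is stored inside shells of ferritin heavy and light chains or leaves through the exporter ferroportin, the product of SLC40A1, and heme oxygenase releases it from heme. The iron regulatory proteins ACO1 and IREB2 bind short hairpins called iron-responsive elements. Bound in the leader of ferritin transcripts they restrain translation, and bound in the tail of the TFRC transcript they protect it from decay. RNA counts do not show the first of these.

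FTL was 1.48-fold higher and TFRC 1.29-fold lower with progesterone, and at both genes the libraries of the groups did not overlap. FTH1, HMOX1, SLC11A2, SLC40A1 and IREB2 overlapped between the groups. TF overlapped too and varied more among the DMSO libraries than any other member. Across the whole table, 359 of 13557 tested genes had a Benjamini-Hochberg adjusted p under 0.05 in edgeR's quasi-likelihood test, which is 2.65%. Of the 8 members 2 were among them, FTL on the higher side and TFRC on the lower side. The shares of all genes are 1.69% higher and 0.959% lower. Leaving out any 1 of DMSO R7, DMSO R9 or the 4 progesterone libraries ended both members' calls, and then only 42 to 82 genes passed in the whole table. Groups without overlap were found at 2 of the 8 members and at 16.2% of all genes, 7.95% higher and 8.22% lower. The median log2 fold change was 0.063 over the members and -0.0072 over all genes tested. Since the members were picked on this contrast, nothing follows from these counts.

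Library names follow the table's columns, whose numbers differ from those in the sample titles. The libraries held between 23810861 and 32509786 estimated counts, of which the 8 members took between 0.205% and 0.255%. DMSO R7 and R9 stood apart from the other 6 libraries on the first principal component of log2 CPM, which held 62.2% of the variance. For many genes values are therefore also given without R7 and R9, as 2 DMSO against 4 progesterone libraries. The 7 epithelial markers summed to 2821 to 3073 CPM with DMSO and 1739 to 2659 CPM with progesterone, with no overlap (CPM is the estimated count over the library's scaled total, the same unit in every library). Most of this sum was the keratin KRT8, at 2286 to 2789 CPM with DMSO and 1348 to 2107 CPM with progesterone, and its part in the results was not tested. KRT19 lay between 255 and 706 CPM, KRT7 between 5.70 and 35.3, KRT18 between 0.948 and 6.92 and the adhesion protein CDH1 between 10.5 and 22.7. Among defining epithelial markers EPCAM reached at most 2.53 CPM and CLDN4 at most 0.102 CPM. Over all 8 libraries the epithelial markers went both ways, with log2 fold changes of 0.08 in KRT19, 0.22 in KRT7 and 0.37 in CDH1. KRT19, KRT7 and CDH1 were each lowest in DMSO R7 and R9, and their change without R7 and R9 was not tested. KRT19 was at 255 and 258 CPM in R7 and R9 and at 706 and 564.6 CPM in R1 and R3. With progesterone KRT19 lay between 361 and 585 CPM. KRT7 was at 5.70 and 6.09 CPM in R7 and R9 and at 35.3 and 21.96 CPM in R1 and R3. With progesterone KRT7 lay between 12.2 and 25.7 CPM. The log2 fold changes of KRT8, KRT18 and EPCAM were -0.51, -1.49 and -1.73, and none of these epithelial markers passed in edgeR. KRT18 was at 5.87 and 6.92 CPM in DMSO R7 and R9 and at 2.22 and 1.21 CPM in R1 and R3. With progesterone it lay between 0.948 and 1.80 CPM. EPCAM was at 1.97 and 2.53 CPM in DMSO R7 and R9 and at 0.546 and 0.624 CPM in R1 and R3. Its progesterone levels were 0.275 to 0.595 CPM. All 7 stromal markers were present, with summed levels of 13260 to 20540 CPM with DMSO and 12060 to 13260 CPM with progesterone. The sum was highest in R7 and R9, as were COL1A1, COL1A2, COL3A1, LUM and PDGFRA. VIM did not stand apart there, and DCN was lowest, at 268 and 281 CPM against 522 to 962 CPM in the other 6 libraries. The part of the 7 stromal markers in the results was not tested. Among macrophage markers PTPRC and MARCO were at 0 in every library, and the list summed to between 6.43 and 13.9 CPM. CD14 was at 3.94 and 3.14 CPM in DMSO R7 and R9 and between 7.89 and 11.9 CPM in the other 6 libraries. CD68 lay between 0.991 and 2.68 CPM. Among erythroid markers HBB, SLC4A1 and ALAS2 were at 0 in every library, while HBA1 lay between 9.87 and 15.7 CPM. The endothelial list summed to between 2.99 and 6.62 CPM. In bulk RNA, fewer cells that express a gene and less RNA per cell cannot be told apart.

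**Figure D1:**
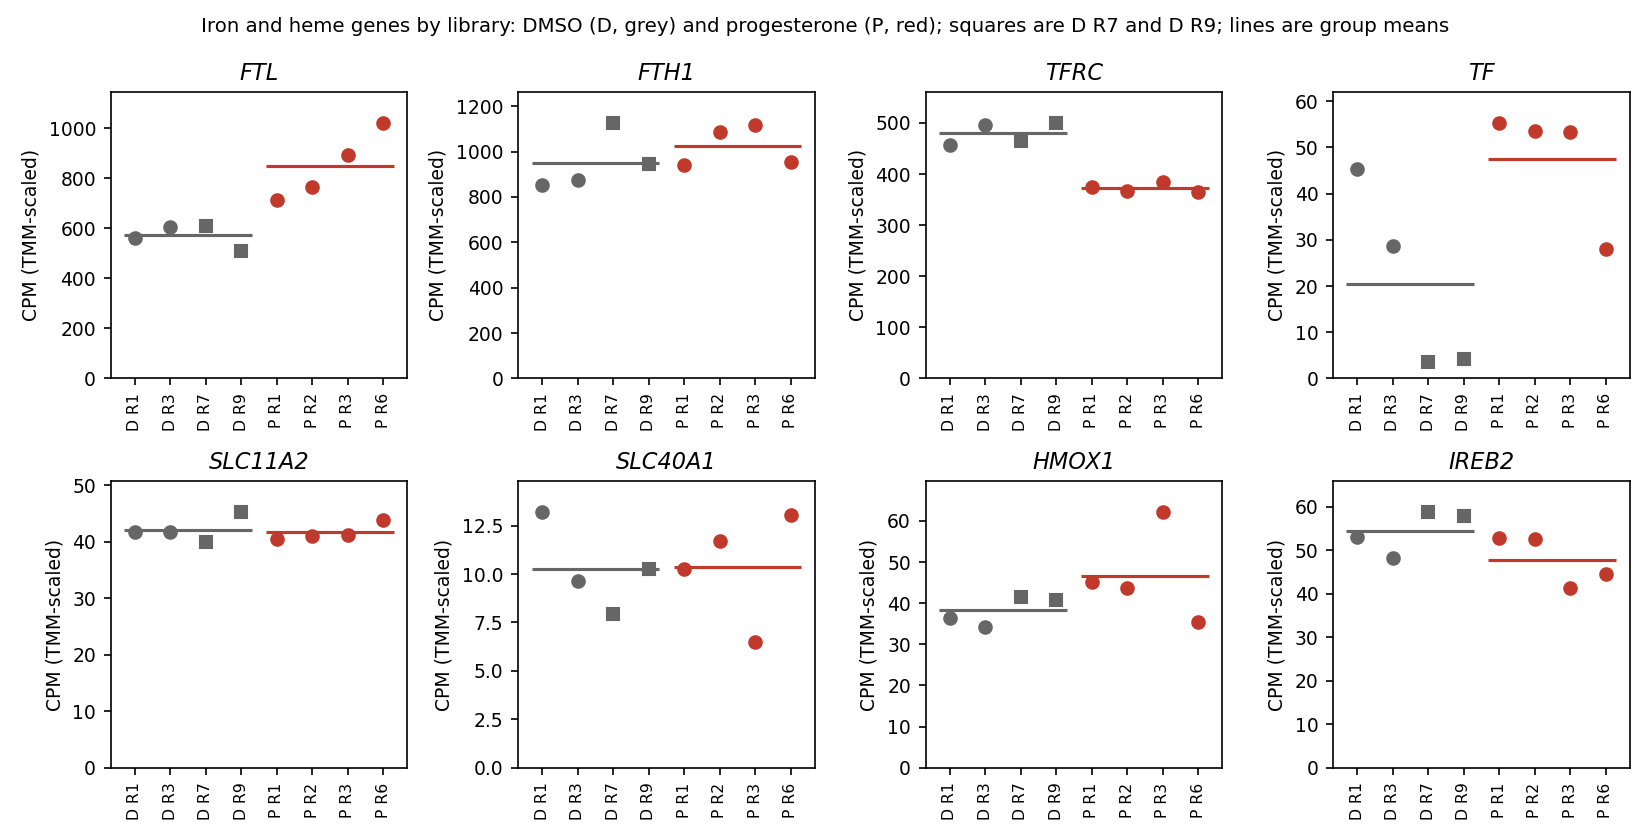
TMM-scaled CPM (vertical axes, starting at 0) of the 8 member genes in each of the 8 libraries, with lines at the means of the 4 DMSO and the 4 progesterone libraries. FTL and TFRC have no overlap between the groups, and TF is at 3.63 and 4.20 CPM in DMSO R7 and R9.

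Transferrin, the carrier that delivers iron to cells, is encoded by TF (Entrez Gene 280705, chromosome 1). Its level was 45.3 CPM in DMSO R1, 28.7 in R3, 3.63 in R7 and 4.20 in R9. In the progesterone libraries it was 55.4 CPM in R1, 53.5 in R2, 53.3 in R3 and 28.1 in R6. The groups overlapped because progesterone R6 lay below both DMSO R1 and R3, and the low DMSO mean came from R7 and R9. The group values were 20.4 ± 20.3 and 47.5 ± 13.01 CPM (mean ± SD, n = 4 each), a log2 fold change of 1.22 ± 0.77 (SE). Without R7 and R9 it was 0.38 ± 0.29. The mean of DMSO R1 and R3 was 9.45-fold that of R7 and R9, and the highest of the 8 libraries was 15.25-fold the lowest. In the other 7 members that range was between 1.13-fold and 2.03-fold.

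TFRC (504698, chromosome 1) encodes the receptor that takes in iron-loaded transferrin. It was at 457 CPM in DMSO R1, 496 in R3, 466 in R7 and 501 in R9. With progesterone it was at 374, 367, 385 and 366 CPM in R1, R2, R3 and R6. Every progesterone library lay below every DMSO library, and each group was narrow. The means were 479.8 ± 21.6 and 373 ± 9.01 CPM (SD, n = 4 each), and the log2 fold change was -0.36 ± 0.08 (SE). Unlike TF, TFRC had nearly the same level in both pairs of DMSO libraries, with a mean of 477 CPM in R1 and R3 and 483 CPM in R7 and R9. The value without R7 and R9 was -0.34 ± 0.09, and the gene no longer passed across all genes.

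SLC11A2 (521189, chromosome 5), the proton-coupled importer known as DMT1, had the smallest range over the 8 libraries of any member, while TFRC varied less within each group. Its DMSO levels were 41.6, 41.8, 39.9 and 45.3 CPM in R1, R3, R7 and R9, and its progesterone levels were 40.5, 40.9, 41.2 and 43.9 CPM in R1, R2, R3 and R6. The progesterone libraries lay inside the range of the DMSO libraries. The log2 fold change was -0.02 ± 0.08 (SE), with a 95% interval of -0.19 to 0.16. This gene makes transcripts with and without an iron-responsive element, which the table sums into 1 row.

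Ferritin light chain, which helps to form the iron core, is encoded by FTL (286861, chromosome 18). Its level was 563 CPM in DMSO R1, 606 in R3, 608 in R7 and 511 in R9. Progesterone libraries had 713 CPM in R1, 765.5 in R2, 892 in R3 and 1023 in R6. All progesterone libraries were higher, and they were spread more widely than the DMSO libraries, with R1 nearest to them. The means were 572 ± 45.5 and 848 ± 138 CPM (SD, n = 4 each), and the log2 fold change was 0.57 ± 0.12 (SE). R7 and R9 did not stand apart here, at a mean of 559.95 CPM against 585 CPM in R1 and R3. The value without them was 0.55 ± 0.14, and FTL no longer passed across all genes.

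Ferritin heavy chain, which oxidizes incoming iron, is encoded by FTH1 (281173, chromosome 29). It was at 854, 876, 1127 and 946 CPM in DMSO R1, R3, R7 and R9. With progesterone it was at 941, 1088, 1119 and 956 CPM in R1, R2, R3 and R6. The groups overlapped, since DMSO R7 was the highest of all 8 libraries and DMSO R9 lay above progesterone R1, while DMSO R1 and R3 were the lowest. The means of 951 ± 124 and 1026 ± 90.4 CPM (SD, n = 4 each) gave a log2 fold change of 0.11 ± 0.11 (SE), and without R7 and R9 it was 0.26 ± 0.11. So the heavy chain moved with the DMSO libraries compared, and the light chain hardly did.

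Ferritin genes have many processed copies, which can share reads. The table lists 6 other rows described as ferritin light chain, and together they held at most 0.281% of the FTL count in any library. The 3 other heavy chain rows held at most 0.0140% of the FTH1 count. Among these copies the light chain rows LOC783224 and LOC101906725 passed the filter, at log2 fold changes of -0.0063 ± 0.33 and 0.07 ± 0.38 (SE). The deposited estimates therefore put nearly all ferritin counts on the 2 parent genes.

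**Figure D2:**
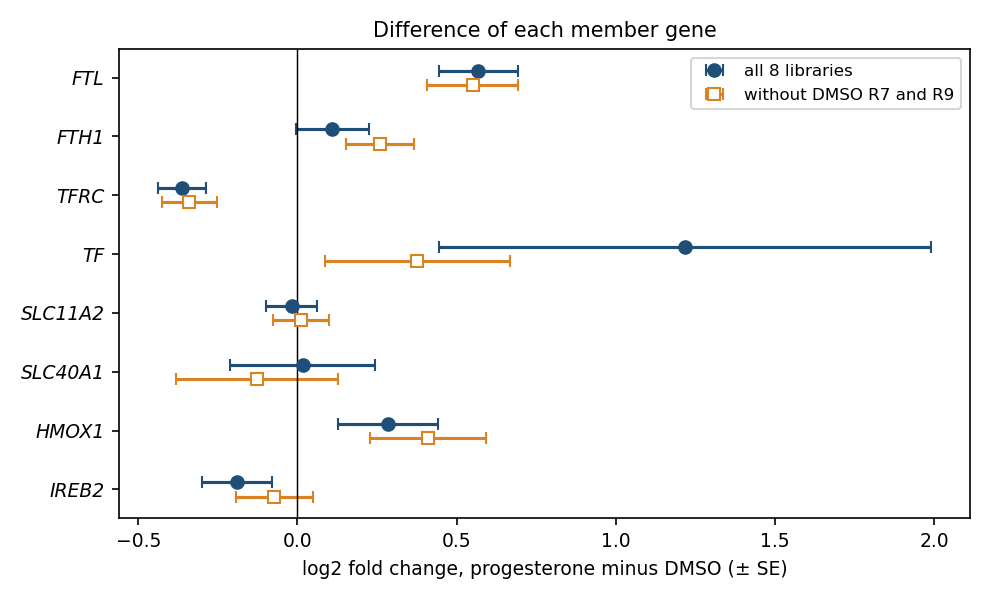
Log2 fold change of each member, progesterone minus DMSO, with its standard error, from all 8 libraries (filled circles) and without DMSO R7 and R9 (open squares). FTL and TFRC keep their place, TF moves from 1.22 to 0.38, and FTH1 moves from 0.11 to 0.26.

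Ratios of estimated counts within a library do not depend on how libraries are scaled. They compare libraries, not the levels of the genes, whose transcript lengths differ. The ratio of FTL to FTH1 was 0.660, 0.691, 0.540 and 0.541 in DMSO R1, R3, R7 and R9, and 0.757, 0.704, 0.797 and 1.07 in progesterone R1, R2, R3 and R6. No overlap was seen, but progesterone R2 lay close to DMSO R3. The ratio of FTL to TFRC was between 1.02 and 1.31 with DMSO and between 1.90 and 2.80 with progesterone, 1.89-fold higher. Since FTL and TFRC each had no overlap and moved opposite ways, this gap follows from their separate values. FTH1 to TFRC was 1.87 in DMSO R1, 1.77 in R3, 2.42 in R7 and 1.89 in R9. With progesterone it was 2.51 in R1, 2.96 in R2, 2.90 in R3 and 2.62 in R6, which made it 1.39-fold higher. DMSO R7 came nearest to the progesterone libraries.

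**Figure D3:**
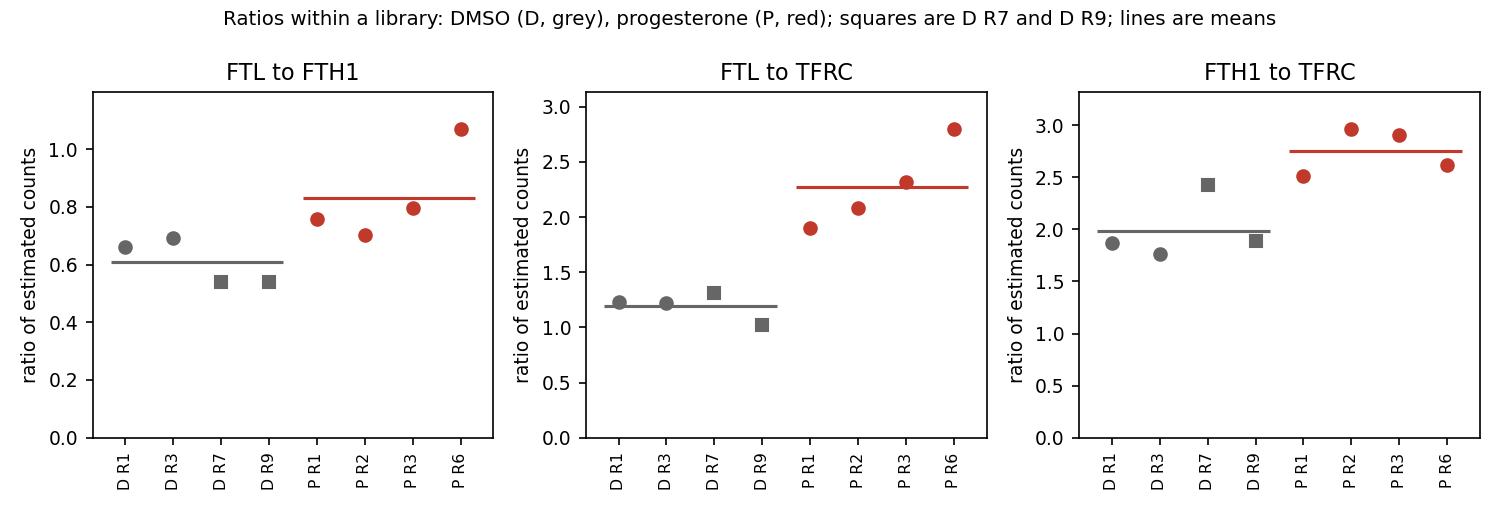
Ratios of estimated counts in each library for FTL to FTH1, FTL to TFRC and FTH1 to TFRC (vertical axes, starting at 0), with group means as lines. FTL to TFRC has the widest gap, from at most 1.31 with DMSO to at least 1.90 with progesterone.

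SLC40A1 (527023, chromosome 2) encodes ferroportin, the only known exporter of free iron from cells. It was the least abundant member by CPM, at 13.2, 9.62, 7.94 and 10.2 in DMSO R1, R3, R7 and R9 and at 10.3, 11.7, 6.50 and 13.1 in progesterone R1, R2, R3 and R6. Progesterone R3 was the lowest of all 8 libraries, and the groups had nearly the same mean. The log2 fold change was 0.02 ± 0.23 (SE), with a 95% interval of -0.49 to 0.52.

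IREB2 (539404, chromosome 21), the iron regulatory protein that is degraded when iron is plentiful, was at 53.2, 48.3, 58.8 and 57.9 CPM in DMSO R1, R3, R7 and R9. With progesterone it was at 52.8, 52.6, 41.2 and 44.6 CPM in R1, R2, R3 and R6. Progesterone R3 and R6 lay below every DMSO library, and R1 and R2 lay among them. The log2 fold change was -0.19 ± 0.11 (SE), and -0.07 ± 0.12 without R7 and R9.

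HMOX1 (513221, chromosome 5) encodes the inducible heme oxygenase, which opens the heme ring and frees its iron. It was at 36.5, 34.3, 41.5 and 40.8 CPM in DMSO R1, R3, R7 and R9. With progesterone it was at 45.1, 43.6 and 62.2 CPM in R1, R2 and R3 and at 35.4 CPM in R6. Progesterone R1, R2 and R3 lay above every DMSO library, and R6 lay below 3 of the 4. The log2 fold change was 0.28 ± 0.16 (SE), and 0.41 ± 0.18 without R7 and R9.

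The progesterone libraries also differed among themselves. R6 had the highest FTL and the lowest TF and HMOX1 of its group. R3 had the highest HMOX1 and FTH1 and the lowest SLC40A1 and IREB2. The coefficient of variation within the progesterone group was 2.41% for TFRC and 3.64% for SLC11A2, against 16.3% for FTL, 24.1% for HMOX1, 27.3% for SLC40A1 and 27.4% for TF.

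For each member, the 3 genes with the nearest profile were found among 11695 named genes of at least 1 CPM, by the root mean square difference of centred log2 CPM over the 8 libraries. This is a description that says nothing of function or control. Highs and lows that a nearest gene shares with its member follow from the way it was chosen. The nearest gene to HMOX1 was SQSTM1, the autophagy receptor p62, at a difference of 0.0483 against a median of 0.332 for all genes. SQSTM1 was at 327, 334, 379 and 379 CPM in DMSO R1, R3, R7 and R9 and at 396, 407, 542 and 324 CPM in progesterone R1, R2, R3 and R6, so it shared the peak in R3 and the low value in R6. TOR4A and AMDHD2 followed, at 0.0790 and 0.0926.

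The nearest genes to TFRC were LARP7, the importin TNPO2 and the RNA decay factor UPF2, at differences of 0.0391, 0.0471 and 0.0482. UPF2 lay between 65.4 and 72.6 CPM with DMSO and between 50.1 and 55.0 CPM with progesterone. Nearest to FTL were YBEY, PIP4P2 and the complex I subunit NDUFB3, at 0.0874, 0.0984 and 0.0995, against a median of 0.371. NDUFB3 was highest in progesterone R6, at 70.6 CPM, as FTL was.

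The nearest genes to TF were the BMP antagonist GREM1, the heparanase HPSE and the gasdermin GSDME, at differences of 0.281, 0.384 and 0.396 against a median of 1.53 for all genes. All 3 were low in R7 and R9, GREM1 at 4.89 and 5.11 CPM against 23.8 to 57.6 CPM in the other 6 libraries. The related gene MELTF (melanotransferrin, chromosome 1), chosen after its values were seen, was at 34.5, 20.0, 2.24 and 2.84 CPM in DMSO R1, R3, R7 and R9 and between 9.43 and 26.8 CPM with progesterone. For FTH1 the nearest gene was PPP1R13B (0.0522), for SLC11A2 VPS35 (0.0360), for IREB2 ASXL2 (0.0449) and for SLC40A1 CEP63 (0.160).

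**Figure D4:**
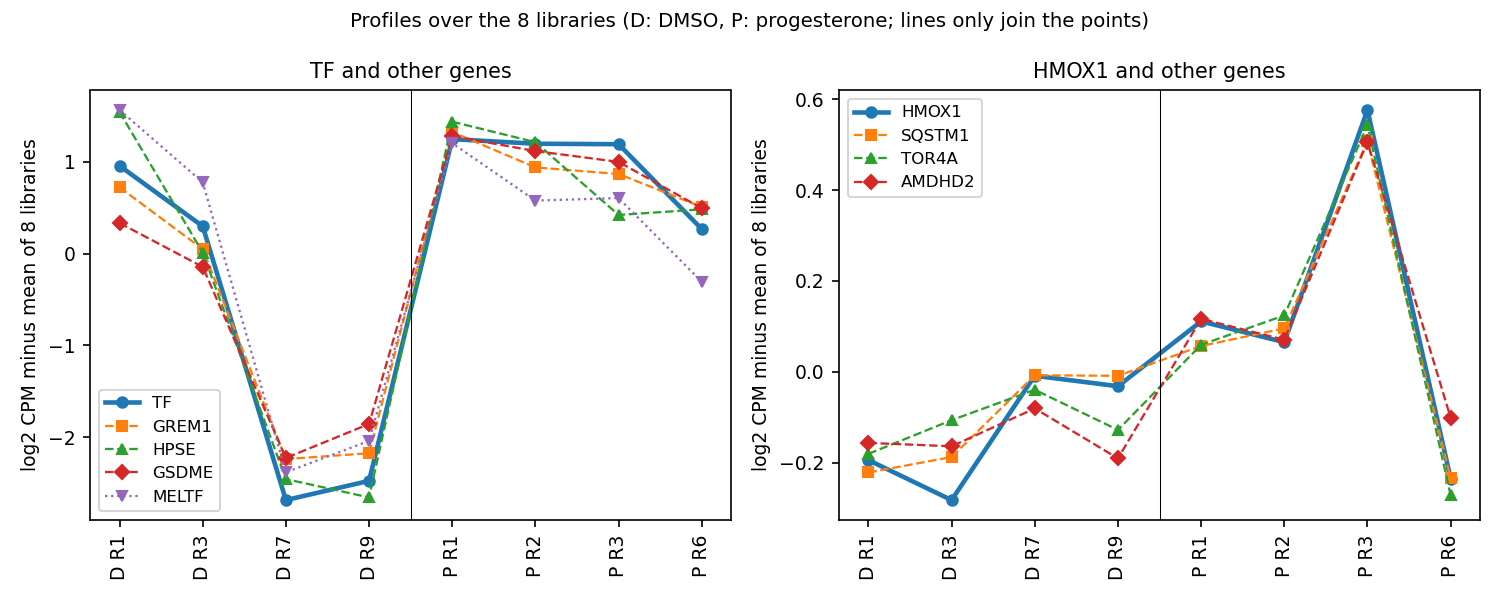
Log2 CPM minus its mean over the 8 libraries for TF with its 3 nearest genes and MELTF (left) and for HMOX1 with its 3 nearest genes (right). TF and the genes beside it drop in DMSO R7 and R9, while HMOX1 and SQSTM1 peak in progesterone R3.

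The rest of iron and heme biology was read from 10 lists of 116 genes that hold no member, of which 115 were matched and 98 tested. Of the 98 genes, 3 rose, 0 fell and 95 did not pass (edgeR, adjusted over all genes). An unadjusted p under 0.05 was found for 25 of them, 15 on the higher and 10 on the lower side, and for 3627 of all 13557 genes. DESeq2 called 10 higher and 4 lower, where it called 1830 of all genes, and limma voom called 2 higher and 0 lower. A share of 3 in 98 is near the 2.65% of all genes, and the median log2 fold change of 0.052 was near that of all genes too. Without R7 and R9, 2 of 97 passed, both higher, where 1.18% of all genes did.

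**Figure D5:**
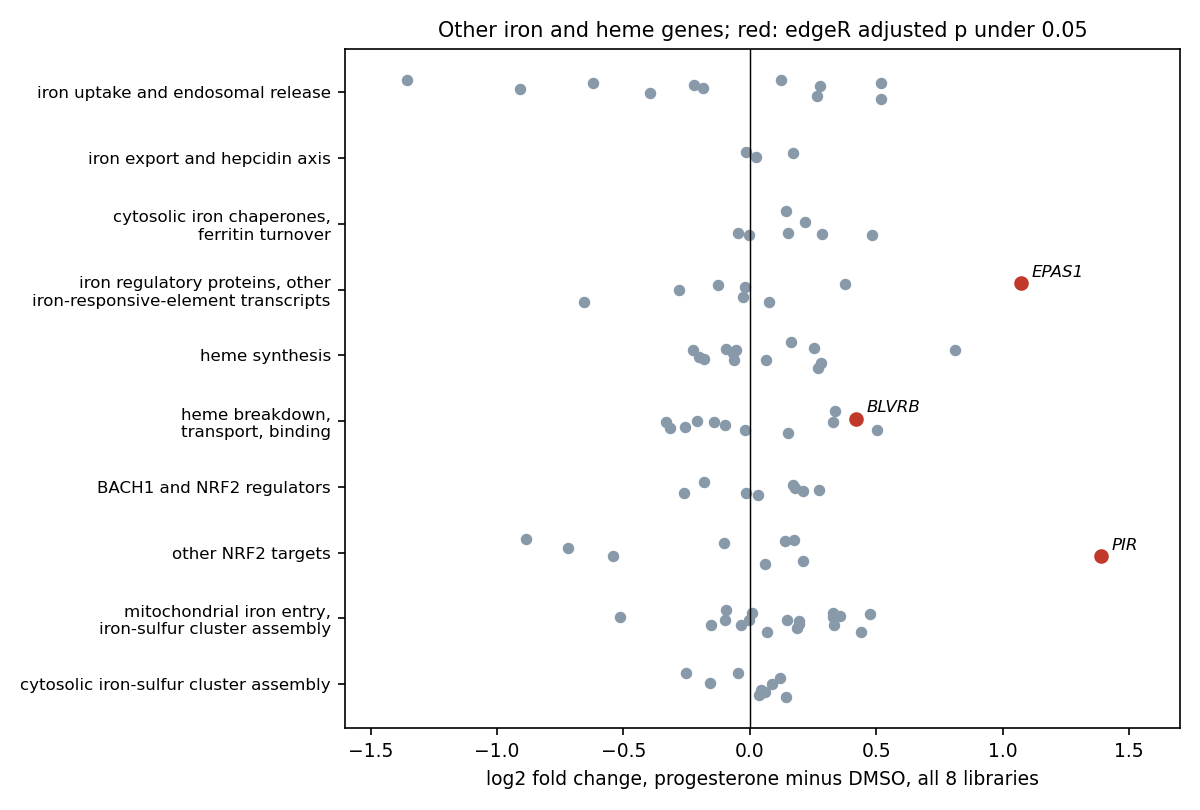
Log2 fold changes (horizontal axis, progesterone minus DMSO, all 8 libraries) of 98 other iron and heme genes in 10 lists, 1 point per gene. EPAS1, BLVRB and PIR, in red, passed the edgeR test, and the lists lie on both sides of 0.

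BLVRB, a biliverdin reductase, rose with progesterone. It was at 57.3, 62.2, 53.8 and 59.6 CPM in DMSO R1, R3, R7 and R9 and at 66.4, 77.1, 84.5 and 83.3 CPM in progesterone R1, R2, R3 and R6, with no overlap. The difference was 0.42 ± 0.10 on the log2 scale (SE), with an adjusted p of 0.0497 in edgeR. The call lay at the threshold: without R7 and R9 the value was 0.39 with an adjusted p of 0.119, with library size as the only scaling the adjusted p was 0.0534, and limma voom gave 0.0566. It also ended when any 1 of DMSO R7, DMSO R9 or the progesterone libraries was left out (edgeR adjusted p between 0.0622 and 0.139). The other biliverdin reductase, BLVRA, had a log2 fold change of 0.34 ± 0.12 and HEBP1, a heme-binding protein, 0.50 ± 0.17. Neither passed (edgeR adjusted p = 0.117 and 0.104). PGRMC1, a heme-binding membrane protein, lay on the other side at -0.33 ± 0.13, with an edgeR adjusted p of 0.146. Its groups did not overlap, as at 16.2% of all genes. Without R7 and R9 the log2 fold changes of BLVRA, HEBP1 and PGRMC1 were 0.29, 0.23 and -0.11. In edgeR 11 of 12 tested genes of heme breakdown, transport and binding did not pass and 5 of the 12 had an unadjusted p under 0.05. DESeq2 called 2 higher, HEBP1 among them (DESeq2 adjusted p = 0.0375), and voom 0. The constitutive oxygenase HMOX2 was at 73.4 and 66.4 CPM.

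PIR, an iron-binding nuclear protein counted among NRF2 targets, rose from 9.93, 9.11, 5.43 and 4.46 CPM in DMSO R1, R3, R7 and R9 to 19.0, 17.2, 20.4 and 19.2 CPM in progesterone R1, R2, R3 and R6. Its log2 fold change was 1.39 ± 0.24 (SE, edgeR adjusted p = 0.0233), and 1.01 without R7 and R9 (adjusted p = 0.00615). Leaving out DMSO R7 alone or any 1 progesterone library ended the call, with edgeR adjusted p between 0.0682 and 0.0770. The other 8 of 9 tested NRF2 targets did not pass in edgeR, and DESeq2 called 2 of them lower, GCLC and TXNRD1 (DESeq2 adjusted p = 0.0241 and 0.0153). GCLC, TXNRD1 and SLC7A11, of glutathione and thioredoxin metabolism, had log2 fold changes of -0.54 ± 0.16, -0.72 ± 0.22 and -0.89 ± 0.45 (SE). Leaving out R7 and R9 gave -0.23, -0.17 and 0.25. TXNRD1 was at 272 and 279 CPM in R7 and R9 and between 123 and 147 CPM in the other 6 libraries. None of 8 regulators around BACH1 and NRF2 passed, with 1 at an unadjusted p under 0.05 in edgeR and 0 calls by DESeq2 and voom. BACH1, the repressor of HMOX1 that heme inactivates, had a log2 fold change of -0.18 ± 0.11, MAFG 0.18 ± 0.10 and CUL3 -0.26 ± 0.09. These log2 fold changes were -0.22, 0.20 and -0.13 without R7 and R9.

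EPAS1, whose transcript is reported to carry an iron-responsive element, rose from 185 ± 24.6 to 389 ± 45.4 CPM (SD, n = 4 each; edgeR adjusted p = 0.00748) and also passed without R7 and R9. The other 7 of 8 tested genes of its list did not pass in edgeR. The partner of IREB2, the cytosolic aconitase ACO1, had a log2 fold change of -0.03 ± 0.09, and FBXL5, the iron-sensing ligase subunit that degrades IREB2, 0.37 ± 0.16 (edgeR adjusted p = 0.160). FBXL5 was at 82.8 CPM in progesterone R6 and between 40.5 and 59.9 CPM in the other 7 libraries. PFN2 was at -0.65 ± 0.30 on the log2 scale, and at 0.05 when R7 and R9 were left out, and CDC14A was at -0.28 ± 0.14.

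Of 11 tested genes of iron uptake and endosomal release none passed. By DESeq2 1 was called higher and 1 lower, by voom 0, and 5 had an edgeR p under 0.05 before adjustment. The smallest p were those of the metalloreductase STEAP1, the endocytic receptor CUBN and the metal importer SLC39A8. Their log2 fold changes were 0.52 ± 0.14, -0.91 ± 0.27 and -0.62 ± 0.19 (SE), with edgeR adjusted p of 0.0732, 0.0807 and 0.0913. Without R7 and R9 the log2 fold changes were 0.38, -0.56 and -0.35. CUBN was at most at 2.12 CPM in any library. Of 7 tested iron chaperones and ferritin turnover genes none passed, 3 had an unadjusted p under 0.05, DESeq2 called 2 higher and voom 0. The chaperones PCBP2 and PCBP3, of a family that hands iron to ferritin, had log2 fold changes of 0.28 ± 0.08 and 0.48 ± 0.16. NCOA4, the receptor that brings ferritin to lysosomes, had 0.22 ± 0.09. These 3 had edgeR adjusted p between 0.0800 and 0.156.

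The export and hepcidin list was mostly silent, with 3 of 9 genes tested and no call by edgeR, DESeq2 or voom and 0 at an unadjusted p under 0.05. The oxidase HEPH, the receptor NEO1 and ERFE had log2 fold changes of 0.17 ± 0.19, -0.01 ± 0.18 and 0.03 ± 0.13. Without R7 and R9 those of HEPH and NEO1 were -0.09 and 0.32. BMP6, which induces hepcidin in liver, did not pass the filter: it was at 2.04 and 2.23 CPM in DMSO R7 and R9 and at most 0.140 CPM in the other 6 libraries (chosen after its values were seen). Hepcidin itself, HAMP, had means of 0.0274 CPM with DMSO and 0.0176 CPM with progesterone.

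All 13 heme synthesis genes were tested and none passed. UROS, an enzyme of ring closure, had the smallest p, with a log2 fold change of 0.81 ± 0.27 (edgeR adjusted p = 0.102), and was the 1 gene at an unadjusted p under 0.05. DESeq2 called 1 higher and voom 0. The transporter ABCB6 and the oxidase CPOX had 0.28 ± 0.13 and -0.23 ± 0.11, and ALAS1, the first enzyme of the pathway in cells other than red cell precursors, -0.10 ± 0.09. The log2 fold changes of UROS, ABCB6 and CPOX without R7 and R9 were 0.51, 0.18 and -0.19.

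Of 18 genes of mitochondrial iron entry and iron-sulfur cluster assembly none passed, 4 had an unadjusted p under 0.05, DESeq2 called 2 higher and voom 0. The scaffold ISCU, the glutaredoxin GLRX5 and the carrier ISCA1 had log2 fold changes of 0.48 ± 0.13, 0.44 ± 0.11 and 0.33 ± 0.12 (edgeR adjusted p = 0.0721, 0.0644 and 0.131). These log2 fold changes were 0.28, 0.40 and 0.16 without R7 and R9. Of 9 cytosolic cluster assembly genes none passed, 1 had an unadjusted p under 0.05, DESeq2 called 1 lower and voom 0. CIAPIN1, CIAO1 and FAM96A had log2 fold changes of -0.25 ± 0.08, -0.16 ± 0.08 and 0.12 ± 0.14.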

How the data were processed

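Per the labels' protocols, total RNA was extracted and a stranded mRNA kit was used for the libraries. The values that the authors deposited are estimated counts for each gene, and the table's name speaks of length normalization. Salmon 1.4.0, bcl2fastq and ARS-UCD1.2 appear in the submitters' processing notes without their role, and how transcripts were summed is not stated there or in the table. Chromosomes are those of the table.

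Counts were rounded, filtered with edgeR's filterByExpr, scaled by TMM factors and tested in edgeR 4.0.16 (R 4.3.3; quasi-likelihood, robust, two-sided, the group as only term). Benjamini-Hochberg adjustment ran over all genes tested, with 0.05 as the threshold. The script was tested on simulated data in which all DMSO libraries shared the same mean for each gene. Those data held no split like that of DMSO R7 and R9, so the test does not cover it. Standard errors (SE) of log2 fold changes were taken as the absolute value over the root of F. No 2 libraries of a group agreed within sampling noise (chi-square per degree of freedom from 14.2 to 129).

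The members and lists were chosen with earlier results of these data known. Beside every member, the rule named in each list the genes that pass and up to 3 others with the smallest p, and 3 nearest genes per member. For 4 members only the nearest is printed. ACO1, HMOX2, ALAS1, BMP6, HAMP and MELTF are outside the rule and were added after their values were seen. Some older symbols stand as in the table (FAM96A is CIAO2A). Alternatives were DESeq2 1.42.0, limma 3.58.1 voom, other scaling factors and filters, unrounded counts, a fit without robust estimation, a threshold of 0.01, leaving out each library, leaving out or modelling DMSO R7 and R9, and a replicate block.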

Additional observations from a re-analysis of the deposited data

Results flagged for a closer look

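In 82 checks of a gene within a group of 4 libraries, 3 libraries lay far from the other 3, and chance alone flags about 1 in 20 such groups. TF in progesterone R6 was at 28.1 CPM, while the other 3 progesterone libraries lay between 53.3 and 55.4 CPM. UROS was highest in progesterone R2, at 5.83 CPM against 5.00 to 5.13 CPM. GLRX5 was lowest in DMSO R9, at 32.1 CPM against 38.0 to 38.8 CPM.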

How the results depend on the processing

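Over 21 alternatives FTL kept a positive and TFRC a negative log2 fold change, between 0.45 and 0.64 and between -0.38 and -0.33. They were called in 12 and 11 of them, the replicate block included. Since the members were picked on this contrast, nothing follows from these tallies. SLC11A2 and SLC40A1 took either sign (-0.043 to 0.018 and -0.46 to 0.19). SLC40A1 was called once, lower, under the replicate block (edgeR adjusted p = 0.0149), which compares only the R1 and R3 pairs. With 359 genes, 2 members and 3 other iron genes past the threshold as reported, the counts were 162, 0 and 2 without DMSO R7 and R9, 278, 0 and 2 with a model term for them, 1830, 2 and 14 with DESeq2, and 27, 0 and 1 at a threshold of 0.01. With no filter 1 member was called (TFRC had an adjusted p of 0.0668). Leaving out 1 library gave between 42 and 1782 genes, 0 and 2 members, and 1 and 12 other iron genes. The highest counts came without DMSO R1 (1782, 2 and 12) and without DMSO R3 (795, 2 and 9), and no member was called without any 1 of DMSO R7, DMSO R9 or the 4 progesterone libraries. The cause of these changes was not tested. The split of all calls, 229 higher and 130 lower as reported, was 182 and 155 with library size only, 888 and 942 with DESeq2, 818 and 964 without DMSO R1, and 359 and 436 without DMSO R3.

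The labels and columns number their replicates differently, so the pairing is not known. A replicate block from the column numbers, which only R1 and R3 share, called 2531 genes, 6 members and 18 other iron genes. In that fit DMSO R7, DMSO R9, progesterone R2 and progesterone R6 each had a term of their own. It thus compared only the R1 and R3 pairs, and its higher counts are no sign of a more sensitive test. Under this block FAM96A was at -0.15, HEPH at -0.098, NEO1 at 0.33 and FBXL5 at -0.00069. The deviations of same-numbered libraries correlated across genes at 0.226 and 0.210, for 2 pairs only.

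Of the named genes outside the members, signs turned only where the call had not been made. NEO1 was at 0.00019 with library size only, 0.016 with no filter, 0.021 in voom, 0.32 without R7 and R9 and 0.31 with their model term, and leaving out 1 library gave between -0.17 and 0.12, above 0 without DMSO R7, DMSO R9, progesterone R2 or progesterone R3. For ERFE this range was -0.066 to 0.091, below 0 without DMSO R1, DMSO R9 or progesterone R3. HEPH, PFN2 and SLC7A11 were at -0.087, 0.051 and 0.25 without R7 and R9 and at -0.10, 0.038 and 0.24 with the model term. PIR lost its call in 6 alternatives and BLVRB in 13.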
